A study of Mus musculus with 6 samples.

Results

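The 10 genes described here write, copy, remove or guard DNA methylation: Dnmt1, Dnmt3a, Dnmt3b, Dnmt3l, Uhrf1, Tet1, Tet2, Tet3, Trim28 and Zfp57. They were chosen by name, and every probe set that the array annotation gives to exactly 1 gene of the list was taken. All 10 genes were found, through 23 probe sets, among 18193 genes and 45101 probe sets on the array. Each gene is described first by its brightest probe set (by the mean of the 6 arrays), and the others follow.

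RNA came from Flk1-positive cells isolated from mouse embryoid bodies at day 4, which the labels call the culture equivalent of the haemangioblast, which gives rise to blood and endothelium. The groups were 3 arrays from Ldb1+/+ embryonic stem (ES) cells and 3 from Ldb1-/- ES cells, all grown without leukaemia inhibitory factor and with no further treatment named. The labels call the replicates biological but do not name separate clones, so p-values measure the spread between these samples. The values were log2 expression levels (a step of 1 is a 2-fold change), and the comparison asked whether loss of the adaptor protein LDB1 changed these genes.

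DNA methylation in mammals is placed on cytosines of CpG pairs. DNMT3A and DNMT3B set it on unmethylated DNA, helped by DNMT3L, which has no catalytic activity of its own. DNMT1 copies it to the new strand after replication, guided by UHRF1, which binds hemimethylated DNA. TET enzymes oxidise methylcytosine, which starts its removal. ZFP57 binds methylated imprinting control regions and recruits TRIM28, which keeps their methylation through the wave of demethylation in the early embryo. Dnmt3b, Dnmt3l, Tet1 and Zfp57 are known for high expression in pluripotent or germ cells.

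The start regions of these genes are shown first, because the CpG pair is what these proteins act on and the genes themselves differ widely in it. Sequences are from RefSeq (GRCm38.p6), cover the 250 bases before an annotated gene start, run 5′ to 3′ on the gene's strand, and have each CpG pair in capitals. All 10 genes matched, with 19 start windows. Shown is the window richest in CpG of Dnmt1 (chr9:20952624-20952873, minus strand, 26 CpG), Dnmt3a (chr12:3806910-3807159, plus strand, 40 CpG), Dnmt3l (chr10:78042037-78042286, plus strand, 5 CpG) and Zfp57 (chr17:37002275-37002524, plus strand, 7 CpG).
Dnmt1: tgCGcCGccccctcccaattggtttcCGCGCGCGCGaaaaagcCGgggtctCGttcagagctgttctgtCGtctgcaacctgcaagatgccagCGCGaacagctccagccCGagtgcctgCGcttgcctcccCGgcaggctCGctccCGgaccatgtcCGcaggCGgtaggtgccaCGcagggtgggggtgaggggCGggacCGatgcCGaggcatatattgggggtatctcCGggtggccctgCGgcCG
Dnmt3a: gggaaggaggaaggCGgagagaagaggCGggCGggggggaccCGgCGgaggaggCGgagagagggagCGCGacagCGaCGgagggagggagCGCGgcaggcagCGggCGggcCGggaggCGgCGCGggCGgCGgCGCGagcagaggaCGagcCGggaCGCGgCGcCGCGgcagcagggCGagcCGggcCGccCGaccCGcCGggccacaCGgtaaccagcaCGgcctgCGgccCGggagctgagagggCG
Dnmt3l: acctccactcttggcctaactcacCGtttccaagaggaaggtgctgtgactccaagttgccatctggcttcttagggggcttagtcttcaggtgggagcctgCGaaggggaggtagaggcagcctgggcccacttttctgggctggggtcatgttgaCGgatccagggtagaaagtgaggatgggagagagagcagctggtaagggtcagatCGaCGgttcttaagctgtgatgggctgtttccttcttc
Zfp57: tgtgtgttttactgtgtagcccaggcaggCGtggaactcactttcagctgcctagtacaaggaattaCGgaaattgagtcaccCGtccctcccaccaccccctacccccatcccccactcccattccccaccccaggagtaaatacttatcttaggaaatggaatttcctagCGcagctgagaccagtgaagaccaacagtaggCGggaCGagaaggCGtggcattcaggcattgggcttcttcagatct

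Over all 32851 RefSeq start windows of this length the median was 6 CpG and the upper quartile 16. A window at or above that quartile was found for 7 of the 10 genes: Dnmt1, Dnmt3a, Dnmt3b (21), Uhrf1 (30), Tet2 (51), Tet3 (17) and Trim28 (17). Tet1 had 15. The 3 windows of Dnmt3l held 3 to 5 and the 3 of Zfp57 held 3 to 7. Starts of 1 gene also differed, as the 3 Dnmt1 windows held 26, 7 and 2 and the 3 Dnmt3a windows 40, 38 and 15. The labels and files do not say which start was used in these cells. LDB1 complexes of blood cells are known to bind GATA motifs beside E-boxes. The letters GATAA, searched on both strands, occurred in 3 of the 19 windows, all 3 of Zfp57, and in 22.6% of all windows. The letters CANNTG, the same on both strands, occurred in 12 of the 19 windows and in 66.2% of all windows. These matches describe letters and not bound sites.

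**Figure D1:**
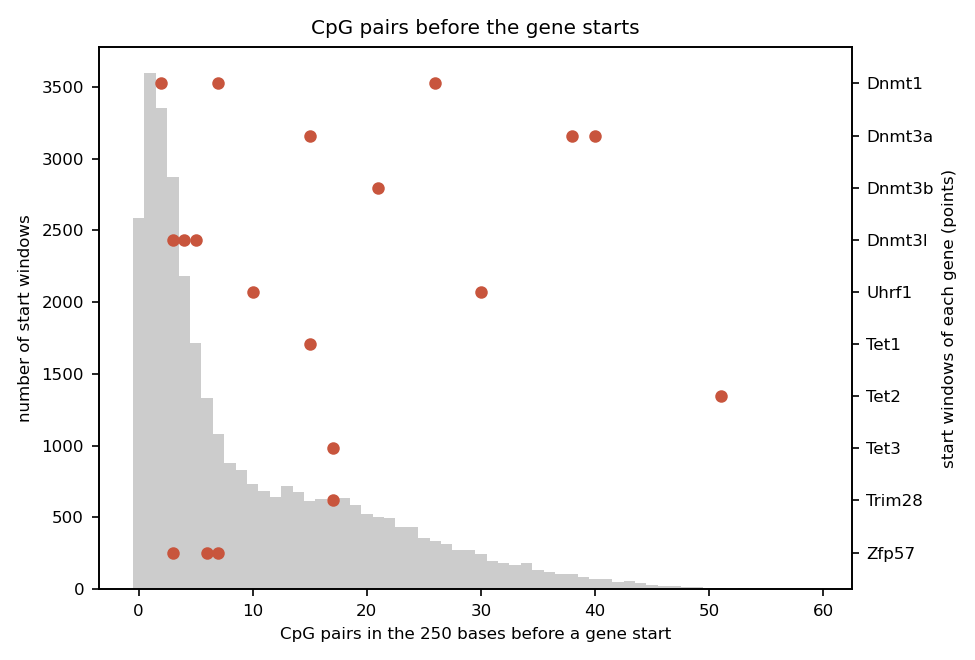
Grey bars give the number of RefSeq start windows (left axis) by the count of CpG pairs in the 250 bases before the start (horizontal axis), and each red point is 1 start window of the gene named at the right. The points of Dnmt3l and Zfp57 all lie at or below 7 CpG, near the median of 6, and the highest point is Tet2 at 51.

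None of the 10 genes passed the test between genotypes (limma, adjusted over all 18193 genes, of which 0.022% passed, and 0.341% with the replicate number as a block). On average 6 of the 10 read higher and 4 lower in knockout, with a median difference of 0.07 against −0.01 over all genes, and the wild-type and knockout arrays overlapped for all 10, while they did not overlap for 7.92% of all genes. Without the block 0 of the 10 had an unadjusted p under 0.05 (3.85% of all genes), and with it 1, Dnmt3a (8.94% of all genes).

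**Figure D2:**
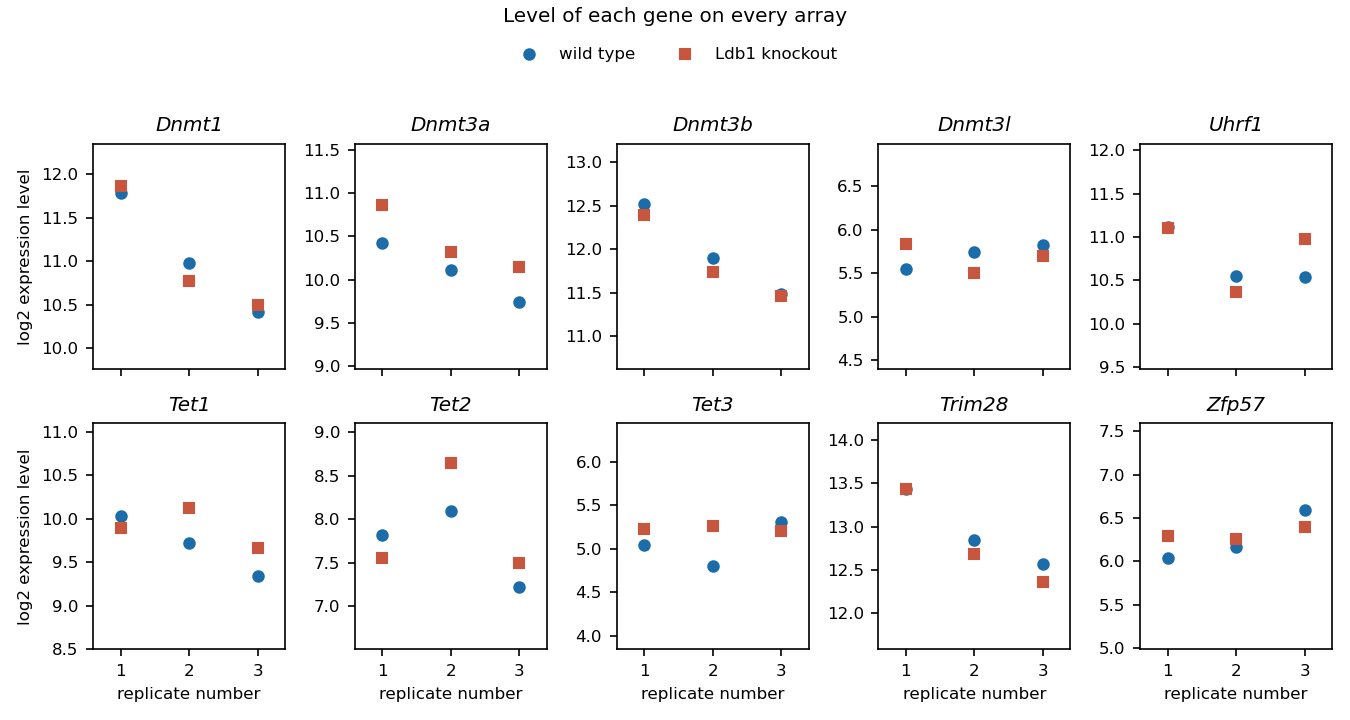
Each panel gives the log2 level of 1 gene (vertical axis, the same span in every panel) on the arrays of replicate numbers 1, 2 and 3 (horizontal axis), as blue circles for wild type and red squares for Ldb1 knockout, with 1 point per array. Circles and squares of 1 number lie close together for Dnmt1, Dnmt3b and Trim28, where the arrays of number 1 are the highest, and the squares lie above the circles at every number for Dnmt3a.

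The maintenance genes had small differences between genotypes, within the spread of the arrays. Dnmt1, the maintenance methyltransferase, read 11.79, 10.98 and 10.42 on wild-type arrays 1, 2 and 3 and 11.87, 10.78 and 10.50 on the knockout arrays of the same numbers. The groups overlapped, and by number the knockout arrays differed from the wild-type arrays by 0.08, −0.21 and 0.08. The means were 11.06 ± 0.69 (SD, n = 3) and 11.05 ± 0.73, a difference of −0.02 (SE 0.46, 95% interval −1.11 to 1.07; limma, adjusted p = 1.00). The other 2 Dnmt1 probe sets differed by 0.03 each. The name of the first ends in _x_at, which marks probes that may also bind other transcripts, while that of the second ends in _a_at, for transcripts of 1 gene.

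Uhrf1, which brings DNMT1 to replicated DNA, read 11.12, 10.55 and 10.54 in wild type and 11.11, 10.37 and 10.98 in knockout. The groups overlapped, with the widest gap, 0.44, between the arrays of number 3. The difference was 0.08 (SE 0.25, interval −0.52 to 0.69; limma, adjusted p = 1.00). The dimmer Uhrf1 probe set (mean 7.45) differed by 0.04, with −0.81 at number 2 and 0.67 at number 3.

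Among the de novo genes, Dnmt3a had the largest difference of the 10 genes, and it did not pass the test. It read 10.43, 10.12 and 9.74 in wild type and 10.86, 10.32 and 10.15 in knockout. The knockout array was higher at every number, by 0.43, 0.20 and 0.40, yet the groups overlapped because the numbers differed more than the genotypes. The difference was 0.35 (SE 0.25, interval −0.25 to 0.94), a 1.27-fold higher mean in knockout (interval 0.841 to 1.92; limma, adjusted p = 1.00; 0.477 with the replicate number as a block). Of the 10 genes 3, Dnmt3a, Dnmt3b and Trim28, had the same direction at all 3 numbers, as did 28.4% of all genes.

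The other 4 Dnmt3a probe sets also read higher in knockout, by 0.29, 0.40, 0.62 and 0.29. All 15 values by probe set and number were above 0, from 0.06 to 0.88. These probe sets share a gene and the same 6 arrays, so they are not independent. With the block 3 of the 5 had an unadjusted p under 0.05, and adjusted over all 45037 probe sets the lowest was 0.418 (limma). The share of all probe sets under 0.05 with the block was not computed, and over genes it was 8.94%. Left out singly, each array moved the difference, from 0.14 when knockout replicate 1 was dropped to 0.51 when wild-type replicate 1 was, and it stayed above 0 under each of the 19 alternative settings.

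Dnmt3b, the other de novo methyltransferase, read 12.52, 11.90 and 11.48 in wild type and 12.39, 11.74 and 11.46 in knockout. The knockout array was slightly lower at every number, with differences of −0.13, −0.16 and −0.02, and the groups overlapped. The difference was −0.10 (SE 0.33, interval −0.89 to 0.68; limma, adjusted p = 1.00), and the second probe set differed by −0.03. The test of the 2 genes against each other was not run.

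Dnmt3l, the catalytically inactive partner, was read by 1 probe set, whose name ending (_s_at) marks probes that can bind several transcripts. Its levels of 5.55, 5.74 and 5.82 in wild type and 5.84, 5.50 and 5.70 in knockout lay at the array medians of 5.71 to 5.77. The difference was −0.03 (SE 0.15, interval −0.38 to 0.32; limma, adjusted p = 1.00). At this level the array may not separate the transcript from background.

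The TET genes did not pass the test either. Tet1, the family member known from ES cells, read 10.03, 9.73 and 9.34 in wild type and 9.90, 10.13 and 9.67 in knockout. The groups overlapped, and knockout was lower at number 1 and higher at numbers 2 and 3. The difference was 0.20 (SE 0.21, interval −0.31 to 0.71; limma, adjusted p = 1.00). Of the other 3 Tet1 probe sets 2 differed by 0.10 and 0.15, and the third, at −0.01, read near the arrays' lower quartile (mean 4.33).

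Tet2, known for its role in blood stem cells, read 7.81, 8.09 and 7.22 in wild type and 7.55, 8.65 and 7.49 in knockout. Its highest arrays were those of number 2 in both genotypes, and the groups overlapped. The difference was 0.19 (SE 0.37, interval −0.69 to 1.07; limma, adjusted p = 1.00), and the second probe set differed by 0.04. Tet3, known from the zygote, had 1 probe set, which read 5.04, 4.81 and 5.31 in wild type and 5.23, 5.27 and 5.21 in knockout, below the array medians. Its difference was 0.18 (SE 0.16, interval −0.19 to 0.56; limma, adjusted p = 1.00), and the direction held at numbers 1 and 2 and turned at number 3.

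The imprint guards also overlapped between genotypes. Trim28, the corepressor of KRAB zinc finger proteins, read 13.44, 12.85 and 12.57 in wild type and 13.43, 12.68 and 12.36 in knockout. Its knockout array was lower at every number, with differences from −0.0049 at number 1 to −0.22 at number 3, and so it was for the second probe set, from −0.02 to −0.21. The difference was −0.13 (SE 0.33, interval −0.92 to 0.66; limma, adjusted p = 1.00). The first of these Trim28 probe sets is of the _x_at kind and the second of the _a_at kind. Zfp57, the zinc finger protein of imprinting control regions, read 6.04, 6.16 and 6.59 in wild type and 6.30, 6.26 and 6.39 in knockout from 1 probe set. The difference was 0.05 (SE 0.17, interval −0.36 to 0.46; limma, adjusted p = 1.00), with the arrays of number 3 going the other way.

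**Figure D3:**
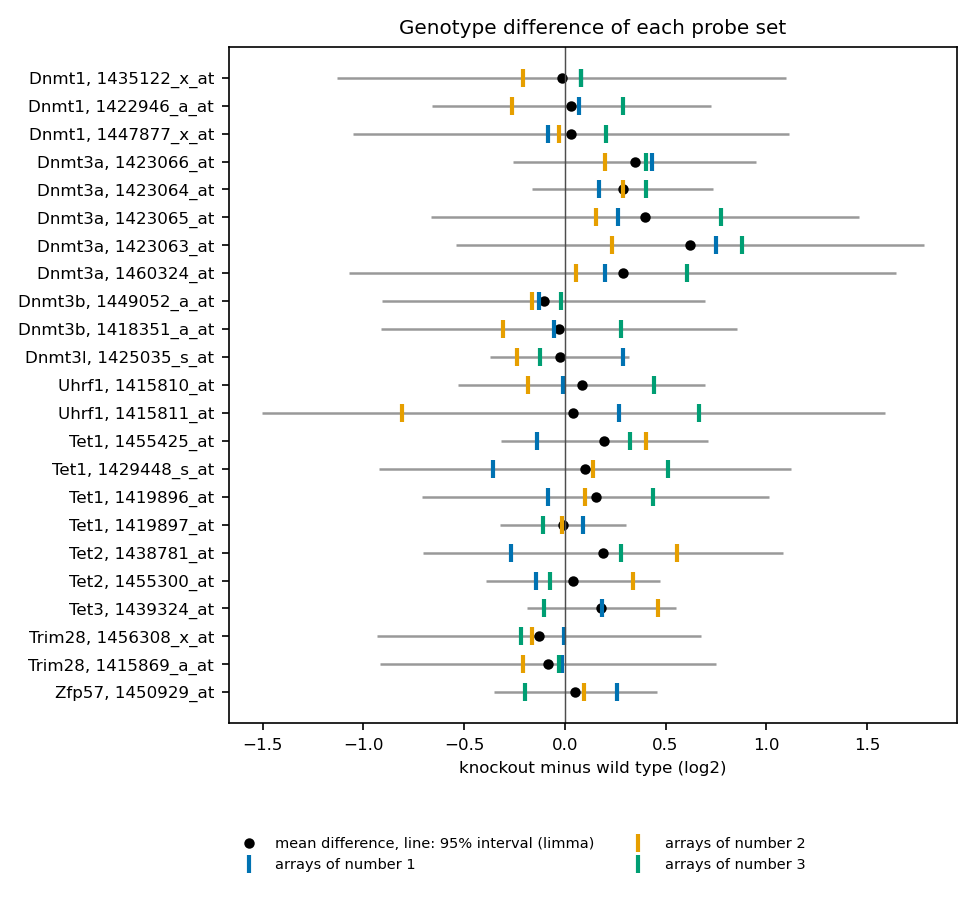
Each row is 1 of the 23 probe sets, and the horizontal axis gives knockout minus wild type on the log2 scale. Black points are means with grey lines as 95% intervals from limma, and coloured ticks are the differences at replicate numbers 1, 2 and 3. Every interval spans 0, and the ticks of all 5 Dnmt3a probe sets lie to the right of 0.

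Over all 23 probe sets 0 passed the test without the block or with it (limma, adjusted over all probe sets, where 0.0222% and 0.0555% of all probe sets passed), and the groups overlapped in all 23. Without the block 0 had an unadjusted p under 0.05 (3.13% of all probe sets), and with it 3, all of Dnmt3a. The share of all probe sets with the block was not computed, so the 3.13% is no measure for these 3. Over genes the share was 3.85% without the block and 8.94% with it. The intervals of the 10 genes reached from −1.11 to 1.07, and a difference within the interval of a gene was not excluded. With the block the intervals reached from −0.43 to 0.65, and 0 of the 10 genes passed (limma, adjusted p from 0.477 to 0.993). These bounds are not the size at which a gene passes the test. Without the block the imprinted genes Plagl1, at −2.81, and Nnat, at −2.00, did not pass (limma, adjusted p = 0.153 and 0.130).

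The 10 genes also differed among themselves in how they varied over the replicate numbers. The numbers paired the arrays, as deviations from the genotype means correlated at 0.698, 0.350 and 0.446 for numbers 1, 2 and 3. The labels do not say what they stand for. In the blocked fit 3 of the 10 genes differed between numbers (limma F test, adjusted over all genes), against 9.15% of all genes and 14.2% of the better read genes, those above the median of probe set means. The 3 were Dnmt1 (adjusted p = 0.0171), Dnmt3b (0.0283) and Trim28 (0.0299). This test was chosen after the values were seen. The range of the 3 number means was wider than the genotype difference for all 10 genes and for 83.5% of all genes, and nothing is read from this, since a range of 3 means tends to exceed a difference of 2 without any effect. The F test gave 0 of the 10 genes when either array of number 1 was dropped, and 6 when either or both arrays of number 3 were.

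The mean Dnmt1 level was 11.83 at number 1, 10.88 at number 2 and 10.46 at number 3, a 2.59-fold range. Dnmt3b stood at 12.45, 11.82 and 11.47, a 1.97-fold range, and Trim28 at 13.43, 12.76 and 12.47, a 1.96-fold range. For these genes both number 1 arrays lay above the other 4. Number 1 was the highest of the numbers in each genotype for 5 of the 10 genes, the other 2 being Dnmt3a and Uhrf1, for 24.7% of all genes and for 33.7% of the better read ones. By probe set 8 of 23 passed the number test, against 4.78% of all probe sets, dim ones included. Those were 2 of Dnmt1, 3 of Dnmt3a, 1 of Dnmt3b and 2 of Trim28. The 2 of Dnmt1 are of the _x_at kind, and its _a_at probe set did not pass (limma F test, adjusted p = 0.112). Probe sets of 1 gene share the same arrays and are not independent, and the share among better read probe sets was not computed. Tet2 was highest at number 2 (8.37 against 7.68 and 7.36; adjusted p = 0.0637). Dnmt3l, Tet3 and Zfp57, whose levels lay nearest to or below the array medians, ranged by 0.14 to 0.32 over the numbers.

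Wild-type array 3 had a narrower spread of values than the other arrays. Its lower and upper quartiles were 4.37 and 7.92, against 4.22 to 4.28 and 8.15 to 8.27 on the others. Some control probe sets also moved with the numbers. The part of either in the differences between numbers, or in those between genotypes at number 3, was not tested. The 18S ribosomal RNA control (3′ probe set) read 11.93 and 12.10 on the number 3 arrays and 8.51 to 9.39 on the others, and the 5′ control of Gapdh read 12.93 on both number 3 arrays and 10.19 to 11.11 on the others. Between numbers 1 and 2 the gap was smaller, with the 18S control at 9.39 and 9.26 against 8.56 and 8.51, and that of Gapdh at 11.11 and 10.66 against 10.69 and 10.19. The 3′ control of Gapdh read 14.37 to 14.49 on all 6 arrays. For actin the 5′ control read 12.97 and 13.22 on the number 3 arrays and 11.19 to 11.49 on the others. Its 3′ control read 14.20 to 14.51 on all 6 arrays. The summed linear levels of the marker lists ordered the numbers in different ways. Over 9 neural and ectoderm markers the sum was 1675 and 1702 on the number 1 arrays. It was 796 and 637 on those of number 2, and 940 and 1582 on those of number 3. Over 11 haemangioblast and mesoderm markers it was 22310 and 24014, then 20312 and 16224, then 15851 and 18289. In both lists the number 1 arrays thus lay above all the others, which they did not for germ cell or visceral endoderm markers. Over 19 S phase and proliferation genes the sum was 92099 and 91867 on the number 1 arrays, inside the 89439 to 98688 of the others. Over 15 pluripotency markers it was 22854 and 21461 on the number 1 arrays, 17478 and 15304 on those of number 2, and 16055 and 26213 on those of number 3. By mean log2 level these markers were highest at number 1 in each genotype. The means were 8.46, 8.18 and 8.19 on wild-type arrays 1, 2 and 3 and 8.58, 8.26 and 8.50 on the knockout arrays. The part of these lists in the differences between numbers was not tested.

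Genes that work with these proteins did not pass the test between genotypes either, with differences from −0.31 to 0.58. Of 70 such genes in 6 lists, 59 were measured, 26 lower and 33 higher in knockout, with a median difference of 0.01 against −0.01 over all genes. In limma 0 passed without the block, where 0.022% of all genes passed, and 0 had an unadjusted p under 0.05. With the block 0 passed, against 0.341% of all genes, and 1 had an unadjusted p under 0.05. The medians by number were −0.10, −0.05 and 0.18. Over the better read genes of the whole array they were −0.05, −0.03 and 0.12, so the lists lay close to these.

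The 10 partners of replication-coupled maintenance ranged from −0.14 for Dmap1 to 0.17 for Paf1. Pcna, the replication clamp, read 14.01 ± 0.14 and 14.02 ± 0.23 in the wild-type and knockout groups (SD, n = 3). Among 8 readers of methylated CpG the median was 0.09. Mbd2, which recruits a deacetylase complex to methylated DNA, had the largest difference of all 59 genes at 0.58 (7.17 ± 0.26 and 7.75 ± 0.47; limma, adjusted p = 1.00, blocked 0.236). Its knockout array was higher at each number, by 0.67, 0.73 and 0.33. Mbd1 followed at 0.31. The 10 genes of oxidation products and base excision had a median of −0.02, with Gadd45a, a stress-induced gene linked to demethylation, at 0.55. That value rested on number 3, at 1.38, against 0.31 and −0.03 at numbers 1 and 2. Xrcc1, a repair scaffold, stood at −0.23.

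Among 12 partners of TRIM28 and repressive histone methylation, Atf7ip, a cofactor of the methyltransferase SETDB1, lay at −0.31 and Smarcad1, a chromatin remodeller, at 0.25, with a median of 0.02. Zfp445, which also guards imprints, stood at 11.49 ± 0.11 and 11.71 ± 0.30. The 10 genes of imprint protection and establishment had a median of 0.02. Their largest differences were Arid4a, at 0.30, and Ctcf, the insulator protein of several imprinted regions, at 0.26. The 9 genes of the supply and use of S-adenosylmethionine, the methyl donor, and of the folate cycle had a median of −0.02. Shmt2, a mitochondrial enzyme of the folate cycle, differed by 0.30, and Ahcy, which clears the product of methylation, stood at 13.21 ± 0.08 and 13.19 ± 0.17.

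**Figure D4:**
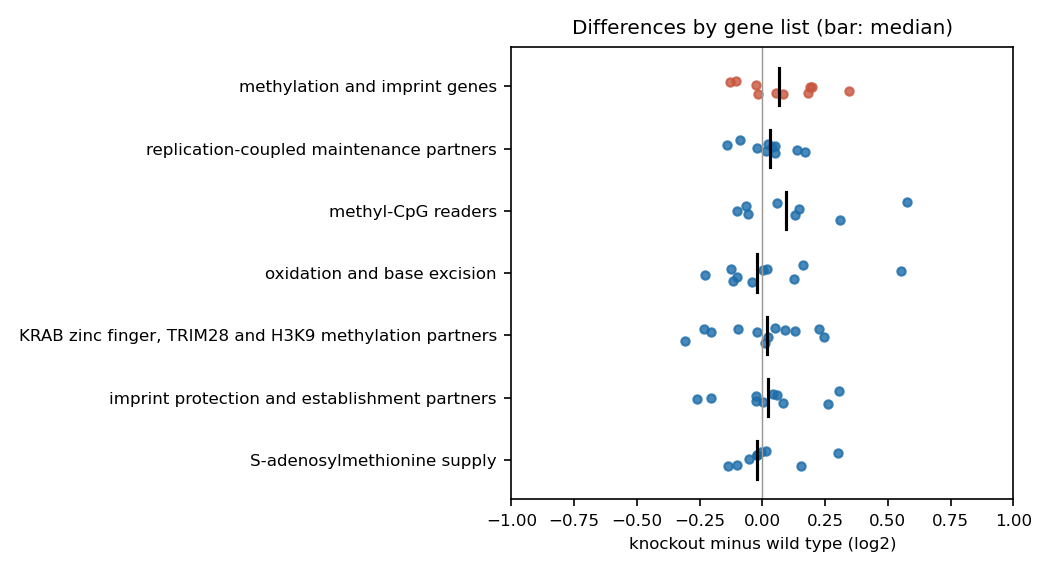
Each point is 1 gene, placed by knockout minus wild type on the log2 scale (horizontal axis; vertical scatter within a row has no meaning), with the 10 methylation and imprint genes in red and 6 lists of partner genes in blue. Black bars are medians, which run from −0.02 to 0.09, and the points farthest out are Mbd2 at 0.58 and Gadd45a at 0.55.

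Imprinted genes, whose marks several of these proteins keep, were read on the same arrays. Of 32 measured, 20 were lower and 12 higher in knockout, with a median difference of −0.11 against −0.01 over all genes. Without the block 1 fell, Mest, and with it 5 fell and 0 rose (limma, 0.341% of all genes called): Mest (−4.60, blocked adjusted p = 0.000709), Plagl1 (−2.81, 0.00559), Nnat (−2.00, 0.00592), Mcts2 (−1.26, 0.0238) and Sgce (−1.16, 0.0387). The difference between these genes and the 10 methylation and imprint genes was not tested. The probe set of Plagl1 is of the _x_at kind. Methylation itself was not measured here.

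The checks on the samples were as follows. Ldb1 read 7.78, 7.31 and 8.31 in wild type and 7.25, 6.60 and 8.25 in knockout, a difference of −0.43 (SE 0.45; limma, adjusted p = 1.00). The deleted part of Ldb1 is not named in the labels, so its probe set may lie outside that part and leave the genotype unchecked. Kdr, the gene of Flk1, read 12.12 ± 0.33 and 11.70 ± 0.44, and Etv2, a regulator of the haemangioblast, 11.66 ± 0.06 and 12.11 ± 0.70. Of 11 haemangioblast and mesoderm markers 0 were called, with summed linear levels of 15851 to 22310 in wild type and 16224 to 24014 in knockout. Of that list 4 of 11, Kdr, Fli1 and Hand1 with a lower and Lmo2 with a higher mean in knockout, had an unadjusted p under 0.05 with the block (8.94% of all genes). The 2 with the lowest difference, named after their values were seen, were Hand1, a mesoderm transcription factor, and Fli1, a transcription factor of blood and endothelium. Hand1 read 11.05, 10.83 and 10.04 in wild type and 9.46, 10.78 and 8.37 in knockout, a difference of −1.10 (limma, adjusted p = 1.00, blocked 0.313). Fli1 read 6.86, 7.98 and 7.71 in wild type and 6.46, 7.34 and 5.62 in knockout, a difference of −1.04 (limma, adjusted p = 1.00, blocked 0.347). Both were lower in knockout at every number, with groups that overlapped. The endothelial marker Cdh5 read 5.86, 5.87 and 5.21 in wild type, near or below the array medians, and 7.32, 7.13 and 4.49 in knockout. Its knockout arrays 1 and 2 thus lay above the medians and above their pairs, by 1.45 and 1.27, and array 3 lay below its pair. Pecam1, another endothelial marker, read 4.76 ± 0.46 and 4.55 ± 0.26 (SD, n = 3), below the medians in both genotypes. In these bulk samples fewer cells of a type and less RNA per cell cannot be told apart.

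Markers of cells in which several of the 10 genes are known to be high were also read. Of 15 pluripotency markers 8 were lower and 7 higher in knockout, with 0 called without the block and 1 with it. That was Dppa5a, named after its value was seen, at 10.65 ± 0.13 and 11.84 ± 0.19 (SD, n = 3; limma, blocked adjusted p = 0.0315, unblocked 0.148). Without the block 4 of the 15 had an unadjusted p under 0.05 (limma, 3.85% of all genes), and with it 6 (8.94%). Of these 6, also named after their values were seen, Klf4 read lower in knockout. Zfp42, Sox2, Tfcp2l1, Dppa4 and Dppa5a read higher. The summed linear level of the list was 16055 to 22854 in wild type and 15304 to 26213 in knockout. Of 8 germ cell markers 0 were called, and their summed level was 2508 to 3146 and 3142 to 4568. The brightest of them and the largest part of each sum was Ifitm3, an interferon-induced gene also expressed outside germ cells, at 10.90 ± 0.20 and 11.52 ± 0.31 (SD, n = 3), a difference of 0.62 with groups that did not overlap (limma, adjusted p = 1.00, blocked 0.210). Dazl and Ddx4 read 4.21 and 4.48 on average in wild type and 3.90 and 4.67 in knockout, near the arrays' lower quartile. The other germ cell markers lay on both sides of the array medians. Over the 6 arrays Tfap2c, Kit and Prdm14 averaged 8.68, 7.78 and 7.08, above the medians. Dppa3 and Prdm1 averaged 5.63 and 5.09, below them. Of 11 visceral endoderm markers all were lower, as were 9771 of all 18193 genes, and 0 were called, with sums of 1024 to 1361 and 670 to 1031. Several, such as Cubn (mean 4.20) and Afp (4.94), read below the array medians. With the block 3 of the 11 had an unadjusted p under 0.05 (limma, 8.94% of all genes). Rbp4, among the brightest, read 8.21 ± 0.28 and 7.30 ± 0.39, a difference of −0.92 with groups that did not overlap (limma, adjusted p = 0.755, blocked 0.0910). Of 9 neural and ectoderm markers 0 were called, with sums of 796 to 1675 and 637 to 1702. The part of these cell types in the values of the 10 genes was not tested.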

How the data were processed

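The authors deposited log2 levels, 1 per probe set, for 6 Affymetrix mouse arrays, made with RMA and the affy package, per the submitters' processing notes, without versions. Of 45101 probe sets 64 were controls, which were left out of the tests. The array annotation gave exactly 1 gene for 34945 of the rest. No filter on low values was set, and 8 of the 10 genes lay above the array medians. The genotype comparison used lmFit and eBayes of limma 3.58.1 (R 4.3.3), fitted on 1 probe set per gene for 18193 genes and again on all 45037 probe sets, with p-values adjusted by Benjamini-Hochberg and called under 0.05. As an alternative the replicate number entered as a block, and the F test of the number was added after the values were seen. Same-numbered arrays deviated together (correlations of 0.698, 0.350 and 0.446 across probe sets, above the limit of 0.1). The fits were tested on simulated data. Of 190 genes in the partner, imprinted and marker lists and the 10 genes, 173 were measured. From each partner list the rule named genes past the threshold, the 2 largest differences and the 2 highest means, from the imprinted genes those past it, and from each marker list the 2 highest means. Names that no statement needed were left out. Outside the rule Cdh5, Pecam1, Hand1, Fli1, Lmo2, Dazl, Ddx4 and Dppa5a were added. So were Klf4, Zfp42, Sox2, Tfcp2l1, Dppa4, Kit, Prdm14, Dppa3 and Prdm1. The genes and lists were chosen with earlier results of these data known. Figures were drawn with matplotlib 3.10.9. The number of arrays limits the precision.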

Additional observations from a re-analysis of the deposited data

How the results depend on the processing

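The 10 genes and their 23 probe sets gave 0 calls in limma under each setting in which they were tested, among them the block, array weights, each array left out, both rescalings of the arrays, another variance model and other choices of probe set. The block changed no call on them. Over all genes 62 were called with the block and 4 without it. That count was 48 with the block and the mean of all probe sets, 68 with array weights and 2 without both arrays of number 3. It ran from 1 to 6 with 1 array left out, and in the blocked fit it was 50, 267 and 815 without the arrays of number 1, 2 and 3. The partner genes gave 0 calls, or 1 in the last of these fits. Dnmt3a, Tet1 and Tet3 kept their direction in every setting run. With 1 array left out Dnmt1 ran from −0.43 to 0.35, Dnmt3b from −0.37 to 0.17, Dnmt3l from −0.11 to 0.063, Uhrf1 from −0.062 to 0.31, Tet2 from −0.19 to 0.39, Trim28 from −0.43 to 0.11 and Zfp57 from −0.061 to 0.22, each turning its direction. In the blocked fit Zfp57 turned to −0.050 without the arrays of number 1, and Dnmt1 and Dnmt3l to 0.080 and 0.081 without those of number 2. Without both arrays of number 3 Dnmt3l stood at 0.024 and Uhrf1 at −0.095, with the block or without it, and with the mean of all probe sets Dnmt1 stood at 0.016, likewise in both fits. Genes that differed between replicate numbers were 1664, from 407 to 7044 with 1 array left out, 3455 without both arrays of number 3, 3145 with trended robust variance and 750 with the mean of all probe sets. Of the 10 genes these were 3, from 0 to 6 with 1 array left out, 6 without both arrays of number 3 and with trended robust variance, 5 without dim probe sets, and 0 with plain probe sets only, where Dnmt1, Dnmt3b and Trim28 have none. The other causes were not tested. The test of the numbers and the settings without both arrays of number 3 were chosen after seeing the data. Without dim probe sets Dnmt3l and Tet3 could not be tested.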
